A study of Drosophila melanogaster with 36 samples.

Results

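Start sites on the fourth chromosome of Drosophila melanogaster were examined with RAMPAGE, which reads capped transcripts from their first base. All peaks placed on that chromosome were taken, which gave 450 of the 31080 peaks of the series. Peaks attributed to genes gave 331 of 24264 entries, and the peak names assigned them to 81 of the 12698 genes with values (0.638%). Every one of the 81 genes had a value in the gene table, 35 of them on the plus strand and 46 on the minus strand. Of the 81, 79 matched a gene symbol, 13 of those being only a CG or CR number, and FBgn0004624 and FBgn0041005 matched none. Both CG17469 and CG41130 matched Mitf, so these are given with their identifiers. The only peak of CG41130 (plus strand, 1222743 to 1222759) is also a minor peak of CG17469, with 1.17% of its score.

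The libraries came from pooled whole animals of the y; cn bw sp strain, without treatment, and each stage gave 1 library. Embryos came in 24 hourly windows, grouped here into 6 periods of 4 h. Larvae were L1, L2 and L3, the last divided by gut colour into dark, light and clear. Pupae were collected on days 1 to 5 counted from white prepupae, and adults of either sex at an age of 5 days since eclosion. Embryos, larvae with pupae, and adults were each prepared as a separate multiplexed library, with another RNA reagent and sequencer for adults, so no test was made across them. Libraries of a period are neighbouring hours and not replicates, and p-values measure a difference against the spread between those hours.

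The fourth is the smallest chromosome of the fly and carries marks of heterochromatin along its gene-rich arm. Heterochromatin protein HP1a and the methyltransferase encoded by egg act there together with Pof, a protein that binds active genes of this chromosome. Several of its genes are known developmental regulators, among them ci, the transcription factor of the Hedgehog pathway, the Pax6 genes ey and toy, and pan, the TCF factor of the Wingless pathway. Sequences of these start sites were not analysed here.

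Recovered reads numbered 698702 to 11856035 per embryo library, 873086 to 14259966 per larval library, 1066282 to 16690598 per pupal library, and 8790853 and 11281352 in the male and female libraries. Of the 81 genes, 70 to 81 were above 0 in each embryo library and 80 and 81 in the adult libraries. Larval libraries had 41 to 77 above 0, with the lowest number in L3 with dark gut. The 5 pupal libraries list every minus-strand gene of the table at 0, so 29 to 35 were above 0 there and pupal values cover the plus strand only. Levels over all stages therefore refer to the 31 libraries with both strands. Levels are in RPM, reads per 1000000 genic reads. In pupae these are plus-strand reads only, so pupal values lie on another scale than the rest. Summed transcripts of late embryonic cuticle genes (6 of 6 markers found) were uneven in early embryos. They had 0.656, 177, 340 and 1690 RPM in the hours from 0 to 4 h, and 3.18, 699.6, 838 and 260.5 RPM in those from 4 to 8 h. Their part in the results below was not tested.

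Peaks lay closer together on the fourth chromosome than on the others. On dm3 they ran from position 34551 to 1311610, with 35.2 peaks per 100 kb against 25.1 over the X and the arms of chromosomes 2 and 3 combined. The arms ranged from 23.1 on 2L and X to 28.5 on 2R. With only peaks at or above the median score of the series, the density was 14.7 per 100 kb against 12.7, with 11.5 to 14.5 in single arms. The strands were even, with 233 plus-strand and 217 minus-strand peaks. Peaks of the fourth chromosome had a median score of 76.5 against 141 elsewhere, and the sources used here do not say what the score measures. All peak counts come from lists made on the pooled series, so they have no replicate error.

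Peaks without a gene were more frequent than elsewhere. Their share was 26.9% (121 of 450), against 22.3% elsewhere, where single arms ranged from 21.7% to 24.2%. The attributed share was 73.1% (95% Wilson interval 68.8 to 77.0%), against 77.7% (77.2 to 78.2%), and the intervals cover counting error only. Among peaks at or above the median score it was 85.2% (79.3 to 89.6%) against 93.9% (93.5 to 94.3%). Unattributed peaks lay at a median distance of 909 bases from the nearest genic peak, against 1128 bases elsewhere, and 52.1% were within 1000 bases against 47.6%.

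The 3 highest-scoring unattributed peaks each lay near or across from a minor peak of a gene on the opposite strand. A plus-strand peak at 65403 to 65610 (score 1919) was 95 bases from a peak of PlexB, a semaphorin receptor gene, that held 0.24% of that gene's score. A minus-strand peak at 202451 to 202591 (score 1250) overlapped a plus-strand peak with 0.274% of the score of Crk, which encodes an adaptor of receptor signalling. The third, at 899631 to 899804 on the plus strand (score 748), was 187 bases from a minus-strand peak with 6.73% of the score of unc-13, a gene for synaptic vesicle priming.

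Genes of the fourth chromosome had about 4 peaks each. The mean was 4.09 peaks per gene (median 4) against 1.90 (median 1) for the 12617 other genes, and the X, the next highest, had 2.10. Only 18 genes (22.2%) had a single peak, against 60.0% elsewhere, and 6 (7.41%) had 10 or more, against 0.943%. The gap was narrower among genes averaging at least 50 RPM. There the mean was 4.90 peaks over 48 genes against 3.00 over 3153 genes, with 14.6% against 35.1% having a single peak. The highest-scoring peak of a gene was also wider, with a median of 128 bases (quartiles 87 to 167) against 82 (37 to 121). Above 50 RPM the medians were 135.5 and 127 bases.

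**Figure D1:**
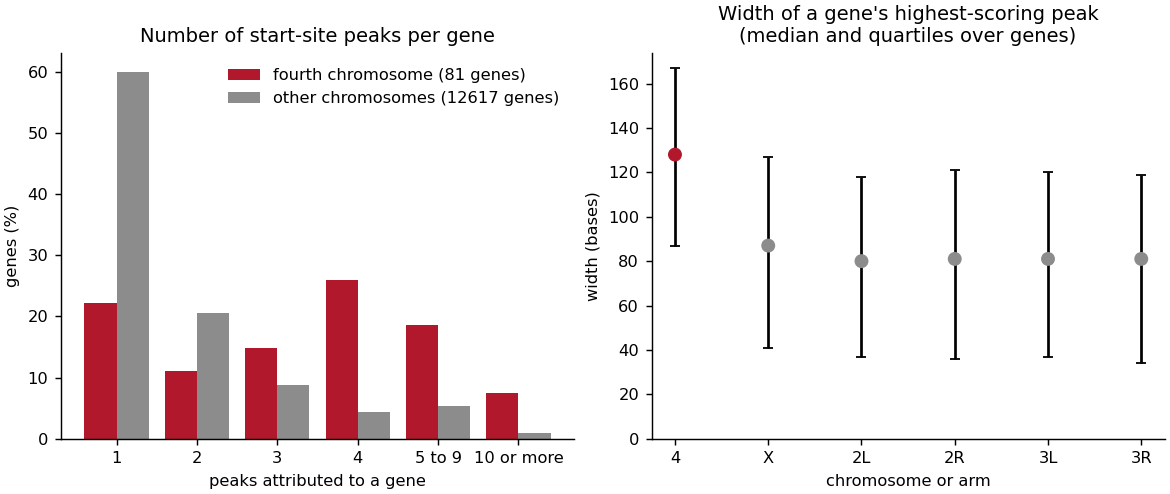
Left, percent of genes by number of attributed peaks, for the fourth chromosome (red) and all others (grey); 22.2% of fourth-chromosome genes had 1 peak, against 60.0%. Right, width in bases of the highest-scoring peak of each gene, as median (point) and quartiles (bars) over genes of each arm; the median was 128 bases on the fourth chromosome and 80 to 87 elsewhere.

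The genes with most peaks differed in how far 1 start dominated. bt, which encodes the titin-like muscle protein projectin, had 27 peaks. Its main peak (plus strand, 744974 to 745106) held 55.3% of its score, and the other 26 lay downstream over 51308 bases. apolpp, the gene of the lipid-carrying apolipophorin of the blood, had 21 peaks, with 83.5% of the score in the main one (plus strand, 1085377 to 1085699). gw, needed for silencing by microRNAs, had 12 peaks, of which the main one held 52.3% and the next 28.9%. eIF4G1, a translation initiation factor gene, had 10 peaks with 97.0% of the score in its main one. For Asator, a kinase gene, the main of 10 peaks held 51.3%, and for unc-13 36.0%, with a further 28.0% at an upstream start.

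Side peaks were less often downstream of the main one than elsewhere. Of the 250 additional peaks of these genes 143 (57.2%) were downstream, against 69.7% to 73.2% in the other arms. The bt peaks alone gave 26 of the 143.

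Levels were high and broad across the life cycle. The median gene of the fourth chromosome averaged 66.9 RPM over the 31 libraries (quartiles 16.8 to 171), against 13.9 RPM (3.00 to 49.9) for other genes and 15.3 RPM for the X. No single gene was among the most abundant of the series, with a highest average of 909 RPM for RpS3A against 10326 RPM for the highest gene elsewhere. At least 1 RPM was present in a median of 30 of the 31 libraries against 27, and 35 genes (43.2%) passed that level in all 31, against 27.7%. With 5 RPM as the minimum these shares were 32.1% and 18.3%. Genes seen in 15 libraries or fewer were few, 4 of 81 (4.94%) against 31.1%. The index tau, which is 0 for an even level and 1 for a gene seen in 1 library, had a median of 0.25 against 0.50. The values describe these libraries and no test was made of them.

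**Figure D2:**
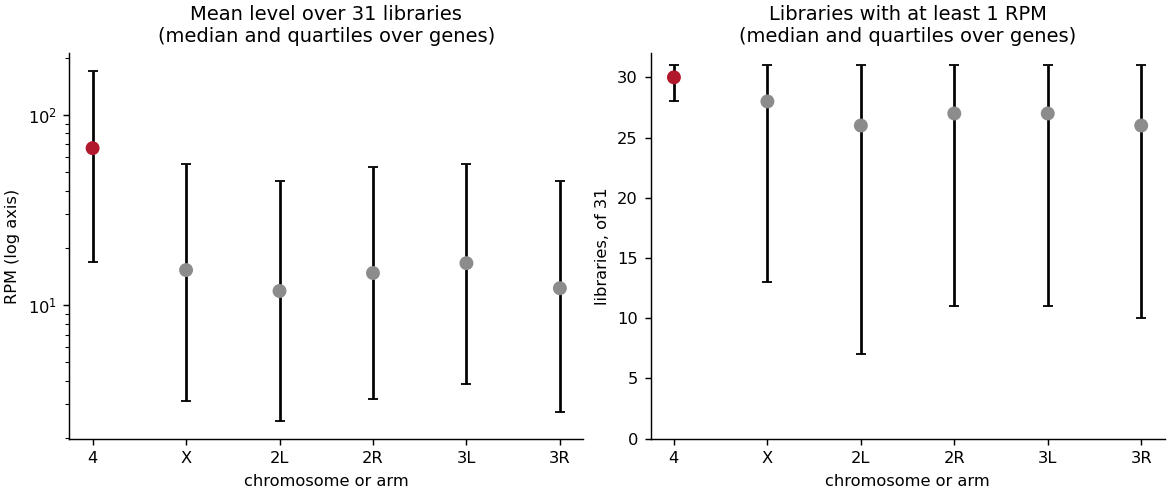
Median (point) and quartiles (bars) over genes of each arm. Left, mean RPM over the 31 libraries with both strands, log axis, 66.9 on the fourth chromosome and 11.9 to 16.6 elsewhere; right, number of those libraries with at least 1 RPM, 30 on the fourth chromosome and 26 to 28 elsewhere.

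The 10 genes with the highest mean levels included 7 of known general function. RpS3A, a protein of the small ribosomal subunit (CG2168, minus strand, 87773 to 87899), ranged from 72.1 RPM at 13 to 14 h to 1568 RPM at 2 to 3 h in embryos. Its other 23 embryo libraries lay at or above 389 RPM, so the 13 to 14 h value stood far below the rest. eIF4G1 (minus strand, 951259 to 951390) averaged 600.2 RPM, and PMCA, a plasma membrane calcium pump, 465 RPM. Taf3, a subunit of the general transcription factor TFIID, averaged 334 RPM, Crk 293 RPM, the kinase gene Dyrk3 251 RPM and Arf4, an ADP-ribosylation factor gene, 246 RPM. Each of these 7 had at least 1 RPM in all 31 libraries, and the lowest value among them was 3.44 RPM, of Taf3 in L3 with dark gut.

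The other 3 of the 10 changed widely between stages. CG31997 averaged 765 RPM but ranged from 2.86 RPM at 7 to 8 h to 5045 RPM in L1. apolpp averaged 417 RPM, with 4.16 RPM at 0 to 1 h and 1422 RPM in the male library. bt averaged 253 RPM, with 0.547 RPM at 0 to 1 h and 879 RPM at 19 to 20 h.

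**Figure D3:**
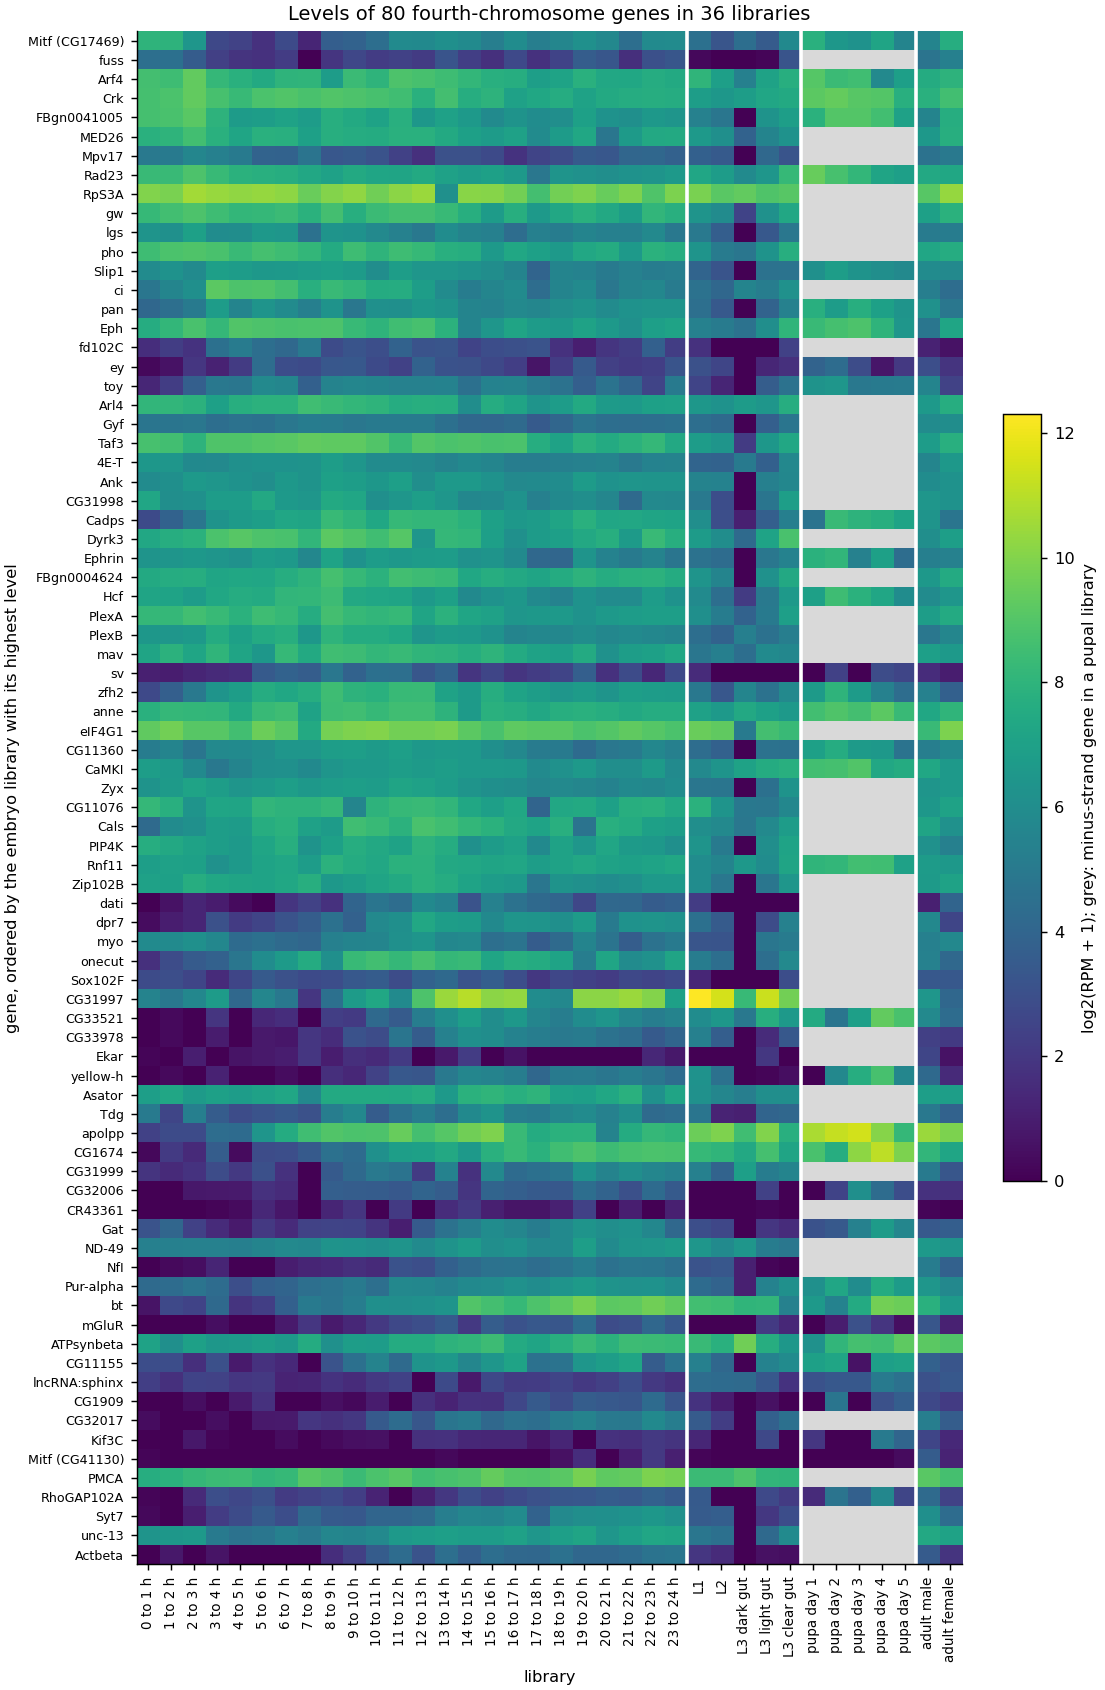
Levels of 80 of the 81 genes (vertical axis, ordered by the embryo library with the highest level) in the 36 libraries (horizontal axis), coloured by log2(RPM + 1); grey marks minus-strand genes in pupal libraries, which have no values there. RpS3A and eIF4G1 are bright in nearly every library with values, while bt is dark in the first hours and bright from 14 h to the end of embryogenesis.

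The summed level of the chromosome stayed near 1% of the genic signal. Over the 6 embryo periods in order it averaged 0.984 ± 0.0861%, 0.991 ± 0.101%, 1.24 ± 0.0716%, 1.22 ± 0.0672%, 0.899 ± 0.204% and 0.985 ± 0.0728% (SD, n = 4 libraries each). All 8 libraries from 8 to 16 h were above 1.13%, and the other 16 embryo libraries at or below 1.12%. Larvae averaged 0.812 ± 0.267% (SD, n = 5), with 0.447% in L3 with dark gut and 1.20% in L1, where CG31997 gave 42.2% of the chromosome's signal. Over plus-strand genes alone, pupae had 0.810 ± 0.187% and larvae 0.591 ± 0.105% of plus-strand signal (SD, n = 5 each). The share was 0.856% in males and 0.977% in females. Without RpS3A, the 8 to 12 h and 12 to 16 h means were 1.13%, against at most 0.907% in the other periods. RNA shares of whole animals cannot tell fewer cells of a type from less RNA per cell, here and for every gene below.

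**Figure D4:**
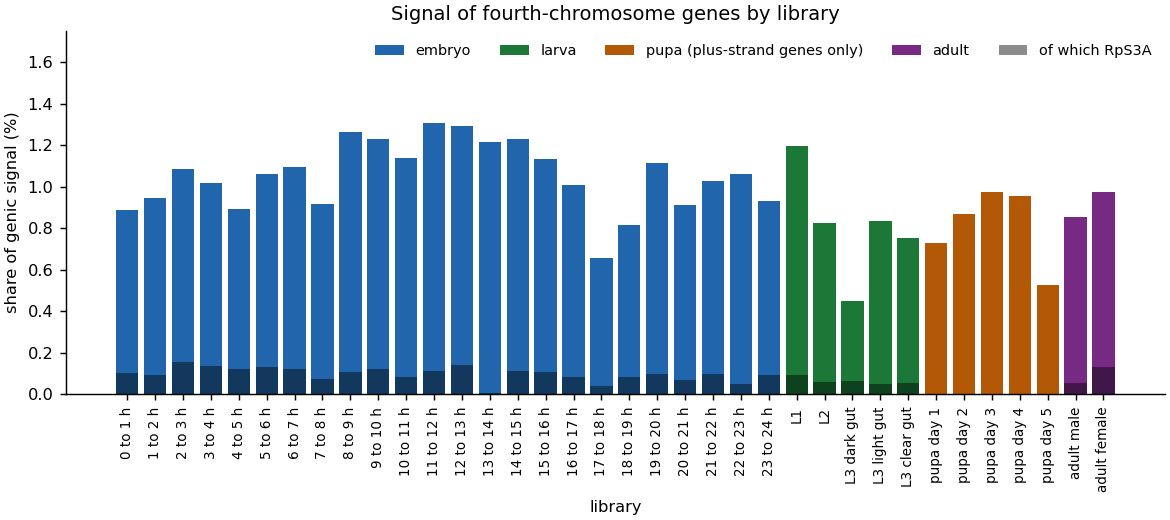
Summed RPM of the 81 genes as percent of all genic signal in each library, coloured by stage, with the part from RpS3A shaded dark at the base of each bar. The highest bar is 11 to 12 h (1.31%) and the lowest L3 with dark gut (0.447%); pupal bars hold plus-strand genes only.

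Along embryogenesis, more of these genes had their highest level in 8 to 12 h and in 12 to 16 h than in any other period. Of 81 genes, 16, 7, 18, 18, 10 and 12 had their highest embryo library in the 6 periods in order. This put 22.2% of them in 8 to 12 h against 9.97% of other genes, 22.2% in 12 to 16 h against 16.5%, and 19.8% in 0 to 4 h against 30.3%. A limma F test of a spline over the hours called a course for 71 of 80 genes tested, against 89.8% of all genes tested. Mitf (CG41130) was not tested, having at least 2 RPM in fewer than 3 libraries. Median-of-ratios scaling gave 58 genes with a course (72.5%, against 80.2% of all genes), 55 of them among the 71. edgeR on recovered reads gave 59 (73.8% against 82.8%), 56 of them among the 71. Among the 9 without a called course were RpS3A, eIF4G1, Asator and Ank, an ankyrin gene.

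**Figure D5:**
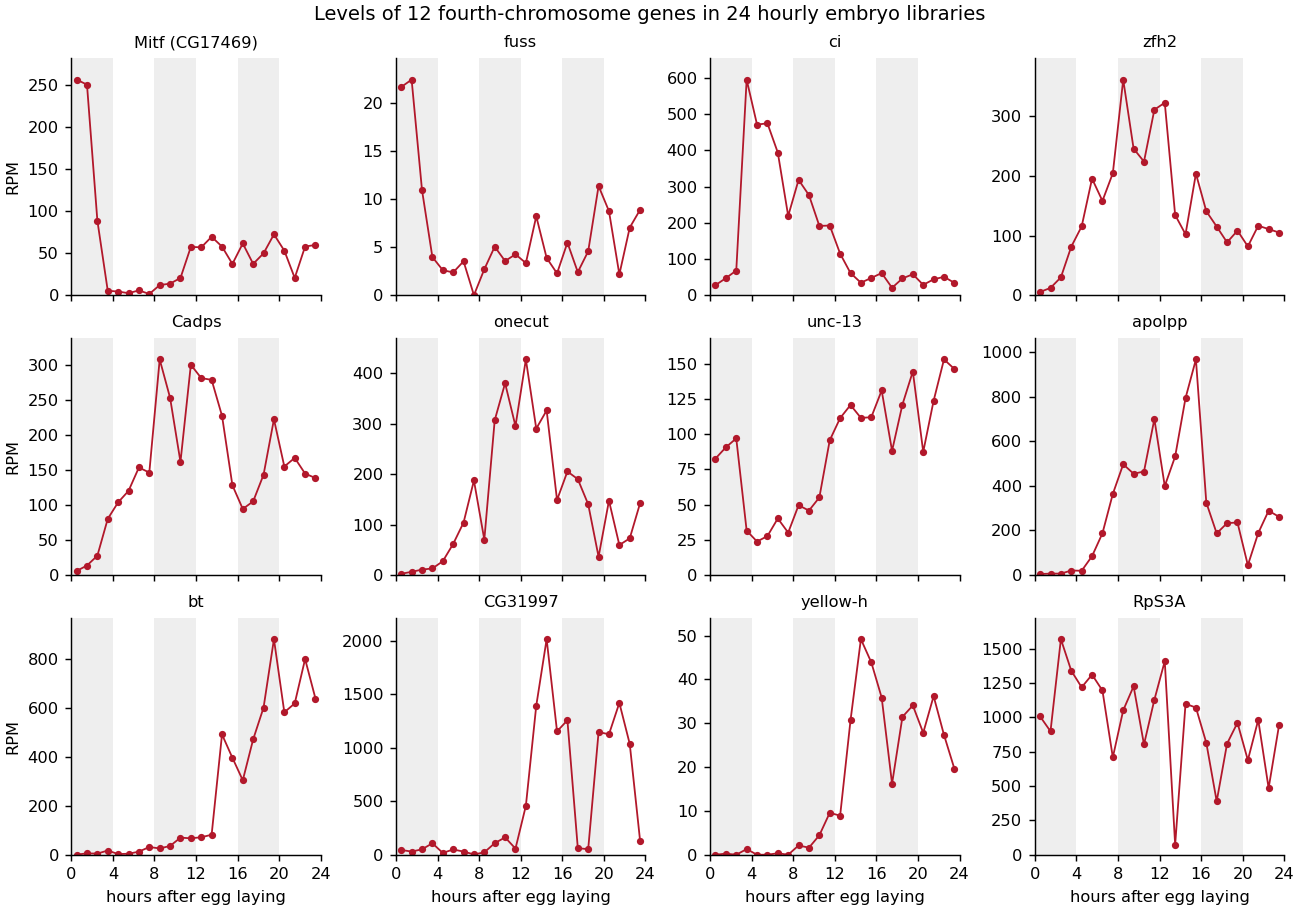
RPM of 12 fourth-chromosome genes against hours after egg laying, 1 point per hourly embryo library, each panel with its own linear axis from 0; grey bands mark alternate periods of 4 h. Mitf (CG17469) and fuss are high in the earliest hours, ci from 3 to 4 h, zfh2, Cadps and onecut have their highest hour between 8 and 13 h, and apolpp, bt, CG31997 and yellow-h after 12 h.

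Between 4 to 8 h and 0 to 4 h, when embryonic transcripts replace those loaded into the egg, genes of the fourth chromosome were called in both directions, with transcription factor genes among them. limma called 16 of 80 genes (17.8% of all 9940 genes tested were called), 10 higher (9.3% over all) and 6 lower (8.53% over all) at 4 to 8 h, at an adjusted p below 0.05 and at least 2-fold. The count lies near the rate of the whole table. The median log2 change, here and below on the log2(RPM + 1) scale, was 0.14 against 0.00 over all genes. Among 15 tested transcription factor genes 7 were higher, 2 lower and 6 not called, with a median log2 change of 0.68.

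zfh2, a zinc finger and homeodomain factor (CG1449, plus strand, 522282 to 522479), had 115, 196, 158 and 204.7 RPM at 4 to 8 h, against 5.47, 12.2, 30.0 and 81.5 RPM at 0 to 4 h. Every later library was above every earlier one (log2 change 2.94 ± 0.50 SE, adjusted p = 0.000253). onecut, a homeodomain factor of neurons (CG1922, minus strand, 628079 to 628406), had 27.2, 61.5, 103.9 and 188 RPM at 4 to 8 h, against 2.30, 6.23, 10.6 and 12.9 RPM at 0 to 4 h. These too did not overlap (log2 change 3.29 ± 0.62 SE, adjusted p = 0.000661).

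ci (CG2125, minus strand, 76875 to 77171) had 471, 475, 394 and 219 RPM at 4 to 8 h, against 27.8, 47.1, 68.1 and 595 RPM at 0 to 4 h. The 3 to 4 h library was the highest of all 24, so the periods overlapped (log2 change 2.11 ± 0.60 SE, adjusted p = 0.0158). The 3 to 4 h library also had the highest cuticle sum of the 8 compared, and its part in the value of ci was not tested. The call of ci was lost with edgeR (adjusted p = 0.378) and without the 0 to 1 h or the 1 to 2 h library (adjusted p = 0.0914 and 0.0683).

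The other factors that rose were at low levels. fd102C, a forkhead gene, averaged 25.3 ± 7.76 RPM at 4 to 8 h against 7.58 ± 9.66 RPM at 0 to 4 h, and toy 36.4 ± 19.7 against 11.8 ± 12.8 RPM (SD, n = 4 libraries each). ey averaged 8.82 ± 7.37 RPM at 4 to 8 h against 1.20 ± 1.17 RPM at 0 to 4 h, and sv, a Pax2 gene of sense organs, 9.33 ± 5.06 against 1.31 ± 0.341 RPM. The calls of fd102C and toy were lost with edgeR (adjusted p = 0.106 and 0.144). That of toy was also lost without the 0 to 1 h, 1 to 2 h, 5 to 6 h or 6 to 7 h library, with an adjusted p of 0.0882 to 0.149.

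Outside the factors, apolpp, Cadps and Syt7 rose. apolpp had 18.8, 84.4, 187 and 364 RPM at 4 to 8 h, against 4.16, 5.98, 6.00 and 19.9 RPM at 0 to 4 h, the largest increase called here (log2 change 3.61 ± 0.65 SE, adjusted p = 0.000406). Only 3 to 4 h and 4 to 5 h overlapped. Cadps, needed for the release of dense-core vesicles, averaged 131 ± 23.1 RPM at 4 to 8 h against 31.7 ± 33.5 RPM at 0 to 4 h. Syt7, a synaptotagmin gene, averaged 9.97 ± 5.17 against 1.19 ± 1.60 RPM.

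The largest fall was that of Mitf, a factor of lysosome and pigment cell biology in mammals. Its entry CG17469 (plus strand, 1219395 to 1219561) had 4.34, 2.37, 5.71 and 1.43 RPM at 4 to 8 h, against 256, 250.1, 88.5 and 5.25 RPM at 0 to 4 h. The 3 to 4 h value already lay among those of the later period (log2 change -4.23 ± 0.76 SE, adjusted p = 0.000422). fuss, of the Ski and Sno family, averaged 2.12 ± 1.50 RPM at 4 to 8 h against 14.7 ± 8.89 RPM at 0 to 4 h, with no overlap.

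FBgn0041005 averaged 116 ± 12.9 RPM at 4 to 8 h against 415 ± 135 RPM at 0 to 4 h. myo, a TGF-beta family ligand, averaged 18.6 ± 2.62 against 59.7 ± 9.06 RPM, and unc-13 30.4 ± 7.00 against 75.5 ± 29.9 RPM. The call of unc-13 was lost without the 1 to 2 h library. None of 11 tested genes listed under translation, RNA and protein turnover was called by limma, with a median log2 change of -0.12. Nor were the 4 axon guidance genes, with a median of 0.15, or the 5 muscle and cytoskeleton genes, with a median of -0.12. The list of 11 also holds Taf3, the DNA glycosylase gene Tdg and the kinase genes Asator and Dyrk3, so it is not purely of that class.

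Fitting only the 8 compared libraries gave 8 calls of 67 genes tested, 5 higher and 3 lower, against 10.9% called over all genes tested in that fit. Among those not called there were fuss (adjusted p = 0.0525), ey (0.053), sv (0.0502), fd102C (0.0571), unc-13 (0.0818), ci (0.111) and toy (0.122). Leaving out a single library gave 12 (without 1 to 2 h) to 21 calls (without 3 to 4 h), 8 to 15 of them higher. These were 15% and 26.2% of the 80 genes, against 12.3% and 23.7% over all genes in the same fits.

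Between 12 to 16 h and 4 to 8 h, as tissues differentiate, more genes of this chromosome were called higher than lower. The same held over all genes. limma called 33 of 80 genes (44.1% over all genes), 27 higher (28.3% over all) and 6 lower (15.8% over all). The total called, 41.25%, lies near the rate of the whole table. These shares over all genes are also the background for the gene lists of this comparison below. The median log2 change was 0.42 against 0.18 over all genes, and 0.61 against 0.32 after median-of-ratios scaling. That scaling gave 28 of the 80 genes higher and 6 lower, where 30.4% of all genes were higher and 12.2% lower.

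CG31997 (minus strand, 176600 to 176763) changed most, with 458, 1394, 2017 and 1154 RPM at 12 to 16 h, against 16.8, 48.9, 29.5 and 2.86 RPM at 4 to 8 h. All later libraries were far above the earlier ones (log2 change 5.94 ± 0.97 SE, adjusted p = 2.36e-05). It was not steady afterwards, with 61.2 and 51.9 RPM at 17 to 18 h and 18 to 19 h, between 1258 RPM in the hour before and 1148 RPM in the hour after. bt had 71.3, 81.5, 491 and 395.5 RPM at 12 to 16 h, against 2.60, 3.94, 12.6 and 31.5 RPM at 4 to 8 h. Its increase therefore came mostly after 14 h (log2 change 4.29 ± 0.70 SE, adjusted p = 2.44e-05). Of 5 muscle and cytoskeleton genes, bt and Kif3C were higher and the other 3 not called, with a median log2 change of 0.10. Summed muscle markers (3 of 3 found) were at 4379 to 16879 RPM at 12 to 16 h against 45.7 to 1214 RPM at 4 to 8 h, and their part was not tested.

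yellow-h, of the Yellow protein family (plus strand, 248500 to 248564), had 8.91, 30.7, 49.2 and 43.9 RPM at 12 to 16 h, against 0, 0, 0.336 and 0 RPM at 4 to 8 h (log2 change 4.75 ± 0.48 SE, adjusted p = 8.88e-08). Actbeta, an activin ligand gene (minus strand, 1105381 to 1105461), was at 7.80, 21.7, 12.0 and 20.8 RPM at 12 to 16 h and had no read in the 4 libraries of 4 to 8 h. Set against a floor of 3 reads over those 4 libraries, it was at least 68.8-fold higher at 12 to 16 h. The 3 secreted growth factor genes had 2 members called higher, Actbeta and myo, with 52.8 ± 25.4 RPM at 12 to 16 h against 18.6 ± 2.62 RPM at 4 to 8 h for myo. mav, the remaining ligand, was not called.

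The genes named by number only that rose most had little signal at 4 to 8 h. CG33521 averaged 71.9 ± 34.2 RPM at 12 to 16 h against 0.898 ± 1.05 RPM at 4 to 8 h, CG11155 77.0 ± 19.4 against 1.23 ± 1.02 RPM, CG1674 153 ± 54.7 against 5.83 ± 4.05 RPM and CG33978 47.7 ± 27.6 against 1.08 ± 1.24 RPM (SD, n = 4 libraries each).

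Among 7 genes of synapse and excitability 4 were higher and none lower by limma, with a median log2 change of 1.82. Summed neuron markers (2 of 3 found) were at 441 to 1673 RPM at 12 to 16 h against 1.45 to 48.7 RPM at 4 to 8 h, and their part was not tested. unc-13 had 111, 121, 112 and 112 RPM at 12 to 16 h, against 23.7, 27.6, 40.1 and 30.1 RPM at 4 to 8 h. With its fall after 0 to 4 h, this gave it low levels between 3 and 11 h and higher levels on both sides. Syt7 averaged 37.4 ± 13.9 RPM at 12 to 16 h against 9.97 ± 5.17 RPM at 4 to 8 h. Gat, a GABA transporter gene, averaged 33.7 ± 22.5 against 2.54 ± 1.50 RPM, and mGluR, a metabotropic glutamate receptor gene, 7.87 ± 3.76 against 0.925 ± 1.35 RPM. dpr7, of a family of neuronal surface proteins, averaged 110 ± 44.2 RPM at 12 to 16 h against 6.84 ± 3.55 RPM at 4 to 8 h.

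Transcription factors moved both ways, with 4 of 15 higher, 2 lower and a median log2 change of 0.17. Over all genes 28.3% were higher and 15.8% lower, with a median of 0.18, so the list lies near the whole table. dati, a zinc finger factor of neurons, averaged 37.0 ± 20.5 RPM at 12 to 16 h against 1.82 ± 2.04 RPM at 4 to 8 h. NfI averaged 15.4 ± 7.53 against 0.610 ± 0.725 RPM, Mitf (CG17469) 55.2 ± 13.4 against 3.46 ± 1.93 RPM and onecut 298 ± 115 against 95.03 ± 69.2 RPM. ci had 115, 61.1, 34.5 and 47.7 RPM at 12 to 16 h, against 471, 475, 394 and 219 RPM at 4 to 8 h, with no overlap (log2 change -2.65 ± 0.60 SE, adjusted p = 0.000925). fd102C fell to 6.87 ± 1.73 RPM at 12 to 16 h, against 25.3 ± 7.76 RPM at 4 to 8 h.

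Further genes that rose were apolpp (673 ± 256 RPM at 12 to 16 h against 163 ± 150 RPM at 4 to 8 h), Pur-alpha, a single-stranded DNA binding protein gene (52.6 ± 7.88 against 13.8 ± 6.10 RPM), and Tdg, a thymine DNA glycosylase gene (47.2 ± 25.2 against 7.70 ± 1.29 RPM). Kif3C, a kinesin gene, averaged 1.91 ± 0.438 against 0.0839 ± 0.168 RPM. These levels are near the floor, as 1 read is 1.11 RPM at 12 to 13 h and 1.43 RPM at 7 to 8 h. Its call was lost with a pseudocount of 5 RPM (log2 change 0.44). ATPsynbeta, a subunit gene of the mitochondrial ATP synthase, averaged 263 ± 64.8 against 126 ± 44.3 RPM. Of 8 genes listed under mitochondria, transport and metabolism 3 were higher and 1 lower, with a median log2 change of 0.54. The higher ones were ATPsynbeta, apolpp and yellow-h. The lower one was Hcf, a chromatin-associated factor gene, so the list is not purely of that class.

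Besides ci and fd102C, the genes that fell included Eph, a receptor of ephrins (198 ± 170 RPM at 12 to 16 h against 464 ± 31.8 RPM at 4 to 8 h), Hcf, a chromatin-associated factor gene (89.3 ± 31.1 against 234 ± 53.0 RPM), and Dyrk3 (192 ± 103 against 432 ± 119 RPM). Eph was the only 1 of 4 axon guidance genes called, and the median log2 change of the 4 was -0.68. Of 11 genes listed under translation, RNA and protein turnover 1 rose and 1 fell, with a median log2 change of -0.35. These were the DNA glycosylase gene Tdg and the kinase gene Dyrk3, respectively. Leaving out single libraries gave 30 to 33 calls, where 39.1% to 44.5% of all genes were called. Among the genes named above, onecut lost its call without 4 to 5 h, Dyrk3 without 12 to 13 h, and ATPsynbeta without 4 to 5 h, 6 to 7 h or 15 to 16 h.

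Between 20 to 24 h and 12 to 16 h the calls depended on how libraries were scaled. limma on deposited RPM called 12 of 80 genes (29.4% over all genes), 4 higher (12.6% over all) and 8 lower (16.8% over all) at 20 to 24 h. The median log2 change was -0.33 against -0.36 over all genes, so most genes lay lower on this scale. After median-of-ratios scaling these medians were 0.16 and 0.09, and 10 genes were higher and none lower, against 17.7% higher and 8.75% lower over all genes. With edgeR on recovered reads 3 were higher and none lower, against 13.9% and 8.12% over all genes. The 16 to 17 h library was left out of the edgeR fit because its read step was uncertain.

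The 4 higher genes were also called after scaling. CG1909 averaged 11.5 ± 4.90 RPM at 20 to 24 h against 2.05 ± 0.455 RPM at 12 to 16 h (log2 change 1.97 ± 0.38 SE, adjusted p = 0.000232). bt had 581, 617, 798 and 637 RPM at 20 to 24 h, against 71.3, 81.5, 491 and 395.5 RPM at 12 to 16 h. Summed muscle markers were at 17614 to 25699 RPM at 20 to 24 h against 4379 to 16879 RPM at 12 to 16 h, and their part was not tested. RhoGAP102A averaged 11.0 ± 1.62 RPM at 20 to 24 h against 3.70 ± 2.30 RPM at 12 to 16 h, and Mpv17, a mitochondrial membrane protein gene, 13.6 ± 3.27 against 5.67 ± 2.43 RPM. The calls of bt and RhoGAP102A were lost with edgeR, at an adjusted p of 0.12 and 0.118, and without most single libraries. CG1909 kept its call in all 14 alternatives and omissions tried.

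The 8 lower genes kept a negative change but no call after median-of-ratios scaling or with edgeR. apolpp averaged 195 ± 109 RPM at 20 to 24 h against 673 ± 256 RPM at 12 to 16 h (log2 change -2.0 ± 0.65 SE, adjusted p = 0.0202), and after scaling its adjusted p was 0.0901. Its call was also lost without the 15 to 16 h or the 20 to 21 h library (adjusted p = 0.0542 and 0.11). Taf3 averaged 220.2 ± 53.3 RPM at 20 to 24 h against 471 ± 30.7 RPM at 12 to 16 h, and Ephrin, the ligand of Eph, 36.4 ± 8.03 against 93.6 ± 18.8 RPM. The others were CG11360, Sox102F, an HMG-box factor gene, Slip1, and the ligand genes myo and mav. When single libraries were left out, myo kept its call only without 15 to 16 h or 23 to 24 h. In the remaining omissions its limma adjusted p was 0.0578 to 0.171. Sox102F lost its call without 13 to 14 h, and mav without 20 to 21 h (limma adjusted p = 0.0595 and 0.0622). Without the 20 to 21 h library 7 genes were called (25.6% over all genes), 2 higher (11.8% over all) and 5 lower (13.8% over all). Only 1 gene was called higher without the 12 to 13 h, 21 to 22 h, 22 to 23 h or 23 to 24 h library. Over all genes 10.6% to 11.5% were called higher in those fits.

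Transcripts of known regulators of this chromosome or of dosage compensation, whose genes lie elsewhere, were measured as well. Of 13 listed, 12 were found and tested in embryos. Between 12 to 16 h and 4 to 8 h, 7 were lower and 1 higher, against 15.8% lower and 28.3% higher over all genes. The gene of HP1a averaged 163 ± 55.2 RPM at 12 to 16 h against 547 ± 119 RPM at 4 to 8 h (log2 change -1.78 ± 0.35 SE, adjusted p = 0.000241). Pof averaged 2.50 ± 2.14 against 8.22 ± 2.95 RPM (adjusted p = 0.0259). The other lower genes were Su(var)2-HP2, Su(var)3-7, HP4, M1BP and Dref, and the higher one was roX2, a noncoding RNA of dosage compensation. The summed level of the fourth chromosome was 1.22% of signal at 12 to 16 h against 0.991% at 4 to 8 h, and any part of these regulators in that was not tested.

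Pupae were compared with larvae on plus-strand genes, rescaled to 1000000 plus-strand reads. limma called none of the 34 genes tested of 35, where 3% of all 5405 genes were called (1.48% higher and 1.52% lower in pupae). In that fit 8 of the 34 genes were at an unadjusted p below 0.05, as were 1164 of the 5405 genes. edgeR on recovered reads called none either, and none over all genes. The median log2 change was 1.08 against 0.62 over all genes (1.03 against 0.45 after median-of-ratios scaling). The smallest p-value was that of pan, with 148 ± 59.9 RPM in pupae against 35.5 ± 30.3 RPM in larvae (SD, n = 5 libraries each), at a log2 change of 2.86 ± 0.98 SE and an adjusted p of 0.113. Its pupal and larval libraries did not overlap. Without L3 with clear gut 1 of 34 genes was called (2.94%), against 11.4% over all genes in that fit. Without any other single library none was.

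Within pupae some genes changed steeply. apolpp had 1681, 2376, 2839, 1067 and 293 RPM on days 1 to 5, highest on day 3. CG1674 had 441, 202, 1203, 2191 and 949.9 RPM, and yellow-h 0, 51.8, 198, 417 and 49.8 RPM. Both were highest on day 4. bt had 97.5, 43.3, 180.5, 810.0 and 749.8 RPM, high on days 4 and 5. With 1 library a day these values have no replicate check.

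Adult males and females had 1 library each, so values and folds are given without a test. Of 78 genes with at least 2 RPM in either sex, 22 (28.2%) were at least 2-fold higher in males, against 33.9% over all genes, and 8 (10.3%) at least 2-fold higher in females, against 26.6% over all. fd102C, sv and CR43361 were below that minimum. The median log2 difference, male minus female, was 0.17 against 0.06 over all genes and -0.33 on the X. After median-of-ratios scaling these were 0.42, 0.31 and -0.08, and 5 genes were higher in females. The share over all genes on that scale is not given here, so that count has no background.

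The largest male folds were those of dpr7, with 51.8 RPM in males and 4.88 RPM in females, and of toy, with 45.8 and 4.43 RPM. The ratio was 10.6 (95% interval 8.01 to 14.3) for dpr7 and 10.3 (7.70 to 14.2) for toy, the intervals covering counting error only. yellow-h had 17.2 RPM in males and 1.77 RPM in females, Mitf (CG41130) 11.1 and 1.33 RPM, and CG31997 86.7 and 16.1 RPM. Testis and neuronal marker sums were 1708 and 797 RPM in males against 222 and 275 RPM in females, and their part in these folds was not tested. In females 3 of the 4 testis markers were at 0. The same was so in embryos at 13 to 14 h, where the sum was 936 RPM, so it is not particular to testis.

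The largest female folds were those of 5 genes. dati had 1.14 RPM in males and 14.4 RPM in females, Eph 27.9 and 150.1 RPM, FBgn0041005 46.1 and 204 RPM, Mitf (CG17469) 46.3 and 202 RPM and eIF4G1 320.0 and 951 RPM. Mitf (CG17469) and FBgn0041005 were also called lower at 4 to 8 h than at 0 to 4 h, while dati was at or below 1.41 RPM at 0 to 4 h. The summed markers of the maternal germ line were 53.4 RPM in males and 3912 RPM in females, and their part was not tested. The 2 entries of Mitf differed between the sexes in opposite directions, and the sources used here do not say how reads were divided between them. The only peak of CG41130 is shared with CG17469, where it holds 1.17% of the score. That peak lies 3273 bases downstream of the main peak of CG17469. The male fold of CG41130 therefore refers to a peak given to both entries.

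Adjacent genes and all gene pairs of this chromosome were alike in how closely their embryo courses followed each other. Over the 24 embryo libraries, which share a multiplexed library and follow each other in time, the median Pearson r of log2 levels was 0.14 for the 79 adjacent pairs and 0.14 for all pairs. In the other arms adjacent pairs had a median r of 0.22 to 0.26 and all pairs of 0.05 to 0.09. Head-to-head pairs within 2000 bases numbered 11. The closest, dpr7 and RhoGAP102A, had main peaks 47 bases apart and averaged 44.4 and 5.52 RPM. No test was made of these values.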

How the data were processed

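RAMPAGE libraries of 36 stages were prepared by TEX digestion, template switching and cap trapping, per the labels' protocols. The submitters' processing notes name STAR, Cufflinks and build dm3, without versions. The deposited peak lists give positions and a score, and were made by the authors on the pooled series. The score is not given a unit in the sources used here, and was used to rank peaks. The deposited gene table holds RPM per library. Its values were whole multiples of the step taken as 1 read (tolerance 0.01 read), so read counts were recovered from the deposited RPM for depth and for edgeR 4.0.16. At 16 to 17 h the values also fitted the step, but the step itself was held uncertain and that library was left out of edgeR.

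Genes took the peak name without its last number. Of 12698 identifiers, 12089 matched a symbol. Tests used limma 3.58.1 (R 4.3.3, eBayes with trend) on log2(RPM + 1), which understates changes of low genes, for genes that reached 2 RPM in 3 or more libraries. All 24 embryo libraries entered 1 fit with 6 periods, and p-values were adjusted over all genes by Benjamini-Hochberg. A call needed an adjusted p below 0.05 and 2-fold. The course was a spline with 5 degrees of freedom. The tests were tested on simulated data. Tables were handled with Python 3.11.15, pandas 2.3.3 and scipy 1.17.1.

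Genes and lists were chosen with earlier results of these data known. Named genes were, for each test, the called genes by size of change up to 24, with number-only names among the first 6, the members of the role lists, the 10 highest means, the 5 largest adult folds each way, and the genes and unattributed peaks with the most or highest peaks. Alternatives were other pseudocounts, no filter, median-of-ratios scaling, edgeR, only the compared libraries, and leaving out each library. The comparison at minimum levels of 10 and 50 RPM was added after seeing the data. The transposon table, the coverage tracks and promoter motifs were not analysed here. A called gene is not reported here by name.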

Additional observations from a re-analysis of the deposited data

Results flagged for a closer look

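Outlying libraries were sought in the share of signal and in the 10 genes of highest mean level, over 82 groups of 4 or 5 libraries. Each library was set against the range of its own period or stage. By that measure 1 stood apart, while the low value of RpS3A at 13 to 14 h (72.1 RPM) did not pass, and chance marks about 1 in 20 such groups. apolpp was at 19.9 RPM in the 3 to 4 h library, against 4.16 to 6.00 RPM in the other libraries of 0 to 4 h. Late cuticle transcripts summed to 1690 RPM in that library, and their part in this value was not tested.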

How the results depend on the processing

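No paired analysis was possible because each library is a single stage and the numbers within a period only name hours. No called gene was called in the opposite direction by another setting. For 4 to 8 h against 0 to 4 h, fitting only the 8 libraries gave 8 calls, 5 higher and 3 lower, and leaving out 1 library 12 to 21 (8 to 15 higher, 4 to 6 lower). Over all genes these fits called 10.9%, and 11.6% to 23.7%. For 12 to 16 h against 4 to 8 h, leaving out 1 library gave 30 to 33 (24 to 27 higher, 6 lower), against 39.1% to 44.5% over all genes. For 20 to 24 h against 12 to 16 h, a pseudocount of 0.5 RPM or no filter gave 2 higher, median-of-ratios scaling 10 higher and 0 lower, edgeR 3 calls and 0 lower, and leaving out 1 library 7 to 14 calls (1 to 4 higher, 5 to 10 lower). Over all genes 12.1% were higher with that pseudocount and 11.5% without the filter. Leaving out 1 library called 24.6% to 30.3% of all genes there. The median log2 change of that comparison was -0.33, against 0.16 after scaling and 0.10 with edgeR. Pupae against larvae gave 0 to 1 call (0 to 1 higher), and 70 to 74 genes had a course, when 1 library was left out. Over all genes the shares called in those fits were 0.625% to 11.4% and 87.1% to 90.3%. Scaling left 5 genes higher in females, for which no share over all genes is given here. Without RpS3A the share was 0.864%, 0.880%, 1.13%, 1.13% and 0.907% in 0 to 4, 4 to 8, 8 to 12, 12 to 16 and 20 to 24 h. Peaks at or above the median score were 85.2% genic and 116.5 bases wide at the median, and 32.1% of genes passed 5 RPM in all 31 libraries. Over single genes and all settings other than leaving out single libraries, a call was gained 9 times and lost 41 times. These settings include the fits to only the 8 compared libraries. Leaving out single libraries gained a call 13 times and lost one 47 times. Fewest reads were recovered at 7 to 8 h (698702) and in L3 with dark gut (873086), with 70 and 41 of the genes above 0.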
